A study of Drosophila melanogaster with 31 samples.

Results

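The genes described here are 10 Drosophila genes that mark the morphogenetic furrow and the photoreceptors recruited behind it: ato, sca, sens, ro, gl, lz, sev, pros, elav and chp. They were listed by symbol and not by a rule on measured values, though earlier results of these data were known. Each symbol was matched to its FlyBase gene ID among the 17559 genes of the count table. All 10 of 10 were found, and 10 of 10 passed the expression filter that left 13524 genes for testing. The data were RNA-seq of 31 single clones of the larval eye imaginal disc, the epithelium that forms the adult eye, each of about 50 cells cut out by laser. Clones were induced by heat shock at 36 hr after egg laying (AEL) with the MARCM system and were wild-type (labelled WT, here wt), foxoRi (an RNAi transgene against foxo), Tsc1[Q87X] (here Tsc1, a nonsense allele of a brake on TORC1) or Tsc1[Q87X] with foxoRi (here Tsc1 foxoRi). Each genotype was sampled at 108 hr AEL from larvae fed normally and at 156 hr AEL from larvae under nutrient restriction (NR, yeast lowered to 10%), which gives 8 groups. The RNAi transgene was driven by tubulin-Gal4 in the clone and was held off by Gal80ts until the larvae were moved to 30 C for the last 12 hr, while wt and Tsc1 larvae stayed at 25 C. Knockdown and temperature therefore cannot be told apart, nor can food and age. The study took its control clones from siblings of the shifted larvae, kept at the lower temperature. Clones labelled wt or Tsc1 may thus carry the same transgene, held off, and genotype is used below for the label. According to the study's description, clones were cut from the dividing region anterior to the furrow.

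In the third instar eye disc, the morphogenetic furrow sweeps from posterior to anterior across a field of dividing progenitors. Cells in and just ahead of it express the proneural gene ato, which is narrowed by lateral inhibition to single founder cells, the R8 photoreceptors, and each R8 then recruits the other photoreceptors and the cone cells in a fixed order through EGF receptor and Sevenless signaling. A clone that lies far ahead of the furrow would by this background hold little RNA of these genes, a clone at the furrow RNA of the early ones, and a clone behind it RNA of the late ones. In bulk RNA of a clone, fewer cells of a type and less RNA per cell cannot be told apart.

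Levels are in CPM, the standard unit of a gene's count relative to its library's total, here with TMM-normalized library sizes over 29 libraries, and lists of values follow the replicate numbers. The replicates were 3 clones of wt and 4 of each other genotype on normal food, and 2 foxoRi clones and 4 of each other genotype under NR. Total counts ran from 6877877 to 13316136 per library (median 9724622), genes with a count from 9107 to 14950, and ribosomal RNA genes took 33.7% to 64.7% of the counts. The RNA of foxo itself ranged from 22.6 to 77.9 CPM (median 35.2) in the 14 libraries labelled foxoRi and from 24.1 to 70.3 CPM (median 34.2) in the 15 others, so it did not separate them (log2 FC 0.06 ± 0.15 SE, adjusted p = 1.00 by edgeR), and foxoRi is used below as the label of a library. The study likewise saw no drop of foxo RNA in its knockdown samples. It judged the knockdown adequate from antibody staining of nuclear FoxO in mutant clones after the shift. In cultured cells, it reported a loss of FoxO protein with only a partial loss of transcripts. The counts used here hold no measure of protein. The Tsc1 allele puts a stop codon into an otherwise intact gene, so the level of Tsc1 RNA does not check the Tsc1 label. Libraries with 3 counts or fewer on a gene are treated as not distinguishable from 0, which covers counting error only.

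Among the members with a role at the furrow, ato (FBgn0010433, 3R:8278052-8279274, + strand of BDGP6.54) encodes the proneural transcription factor that founds R8. It ranged from 0 to 202 CPM with a median of 16.8, and 2 libraries had 0 counts. On normal food, its levels were 59.5, 5.197 and 6.34 CPM in wt, 31.6, 13.7, 64.96 and 59.95 in foxoRi, 16.8, 68.9, 8.59 and 202 in Tsc1 and 0, 31.4, 4.28 and 55.6 in Tsc1 foxoRi clones. Each of the 4 groups held clones near or above 50 CPM, and wt, Tsc1 and Tsc1 foxoRi also held clones under 10 CPM, so the groups overlapped. Under NR, the levels were 4.19, 84.1, 26.9 and 41.8 CPM in wt, 170.5 and 48.9 in foxoRi, 0, 68.3, 4.502 and 4.79 in Tsc1 and 9.49, 0.447, 15.9 and 8.63 in Tsc1 foxoRi clones. Both foxoRi clones lay above the 4 Tsc1 foxoRi clones, and the 4 Tsc1 clones ran from no count at all to a level above 3 of the 4 wt clones.

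The gene sca (FBgn0003326, 2R:12780541-12802010, + strand) encodes a secreted fibrinogen-related protein that helps to space R8 cells. It was found in every library, from 4.85 to 245 CPM with a median of 64.4. On normal food, sca was at 135, 191 and 47.5 CPM in wt, 161, 108, 72.2 and 82.02 in foxoRi, 12.97, 22.6, 15.2 and 245 in Tsc1 and 4.85, 57.5, 6.92 and 71.9 in Tsc1 foxoRi clones. Of the Tsc1 clones, 3 lay under every wt clone and the 4th was the highest of all 29, while the 4 Tsc1 foxoRi clones all lay under the 4 foxoRi clones, the nearest values being 71.9 and 72.2 CPM. Under NR, sca was at 20.6, 146, 10.9 and 112 CPM in wt, 231 and 203 in foxoRi, 15.1, 129, 28.9 and 31.8 in Tsc1 and 53.3, 45.5, 86.7 and 64.4 in Tsc1 foxoRi clones. The 2 foxoRi clones were above all clones of the other 3 NR groups.

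The zinc-finger gene sens (FBgn0002573, 3L:13396228-13401125, − strand), which maintains the R8 fate, ranged from 0 to 80.1 CPM (median 15.6), with 3 libraries at 3 counts or fewer. The homeobox gene ro (FBgn0003267, 3R:26876771-26881171, − strand), which shuts off ato between the founder cells and acts in R2 and R5, was lower, from 0 to 46.2 CPM (median 1.82), and 11 of the 29 libraries had 3 counts or fewer. On normal food, sens was at 21.1, 12.1 and 2.01 CPM in wt, 64.98, 31.6, 19.01 and 25.9 in foxoRi, 0, 0.724, 4.096 and 80.1 in Tsc1 and 0, 17.04, 1.098 and 17.7 in Tsc1 foxoRi clones, and under NR at 1.76, 48.3, 15.6 and 33.9 CPM in wt, 50.9 and 48.7 in foxoRi, 0.067, 46.6, 2.39 and 0.532 in Tsc1 and 2.46, 2.903, 40.1 and 0.855 in Tsc1 foxoRi clones. The 4 foxoRi clones on normal food lay above the 4 Tsc1 foxoRi clones, 1 Tsc1 clone on each food held most of the sens RNA of its group, and so did replicate 3 of Tsc1 foxoRi under NR. For ro, all 6 foxoRi clones lay between 6.38 and 25.6 CPM, while 8 of the 16 clones with the Tsc1 mutation were under 0.21 CPM.

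The zinc-finger gene gl (FBgn0004618, 3R:18367927-18372738, − strand) is switched on in the cells behind the furrow and is needed for photoreceptors to mature. It had the widest spread of the 10 genes, from 0 to 609 CPM (median 31.2). On normal food, gl was at 69.2, 0 and 3.81 CPM in wt, 124, 369.8, 98.9 and 188 in foxoRi, 2.72, 31.2, 4.995 and 609 in Tsc1 and 0.124, 109, 3.29 and 114 in Tsc1 foxoRi clones. The 4 foxoRi clones lay above the 3 wt clones, whereas Tsc1 and Tsc1 foxoRi each held clones under 5 CPM beside clones above 100 CPM. Under NR, gl was at 2.97, 314, 10.4 and 209 CPM in wt, 182 and 239 in foxoRi, 0.134, 437, 4.87 and 2.31 in Tsc1 and 48.2, 3.57, 17.6 and 0.94 in Tsc1 foxoRi clones. Replicate 2 of Tsc1 was above every other NR clone, and its 3 fellow clones had 2 to 53 counts.

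The Runx gene lz (FBgn0002576, X:9284649-9303636, + strand), which prepares the undifferentiated cells behind the furrow to become R1, R6, R7 and cone cells, was at 3 counts or fewer in 9 libraries and ranged up to 228 CPM (median 1.19). On normal food, lz was at 0.929, 0 and 0 CPM in wt, 7.42, 228, 6.77 and 29.6 in foxoRi, 0.436, 0.103, 1.299 and 18.8 in Tsc1 and 3.98, 15.1, 0.329 and 6.19 in Tsc1 foxoRi clones. The wt clones had 10, 0 and 0 counts, and the foxoRi clones 52 to 2112, with no overlap. Under NR, lz was at 0.441, 47.3, 0 and 43.1 CPM in wt, 8.83 and 40.7 in foxoRi, 0.067, 71.99, 1.19 and 0.443 in Tsc1 and 0.986, 0.149, 0 and 0.256 in Tsc1 foxoRi clones. Both wt and Tsc1 thus held clones at about 0 and clones above 40 CPM, while the 4 Tsc1 foxoRi clones had at most 8 counts.

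The gene sev (FBgn0003366, X:11071441-11086299, − strand) encodes the receptor tyrosine kinase that receives the R7 signal from R8. It ranged from 0 to 420.3 CPM (median 6.12), and 8 libraries had 3 counts or fewer. On normal food, sev was at 15.8, 0 and 42.4 CPM in wt, 77.01, 420.3, 6.12 and 15.7 in foxoRi, 0.218, 0.207, 0.2 and 105 in Tsc1 and 0, 67.2, 0.11 and 14.2 in Tsc1 foxoRi clones. Under NR, it was at 0.551, 164, 4.01 and 271 CPM in wt, 53.9 and 259 in foxoRi, 0.067, 184, 1.01 and 0.798 in Tsc1 and 2.46, 2.98, 7.29 and 0.256 in Tsc1 foxoRi clones. Of the 12 clones of the 3 groups Tsc1 on normal food, Tsc1 under NR and Tsc1 foxoRi under NR, 10 were under 8 CPM and the other 2 were at 105.0 and 184 CPM. In the remaining group with the mutation, Tsc1 foxoRi on normal food, replicates 2 and 4 were at 67.2 and 14.2 CPM. The homeobox gene pros (FBgn0004595, 3R:11328480-11407627, + strand), which follows sev signaling in R7 and the cone cells but is also a gene of neural precursors elsewhere, behaved otherwise. It had more than 3 counts in every library and ranged only from 0.917 to 32.0 CPM (median 7.99), with its 3 highest values in Tsc1 and Tsc1 foxoRi clones under NR, at 32.01, 29.2 and 22.2 CPM, in which sev was at 2.98, 0.798 and 1.01 CPM.

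The gene elav (FBgn0260400, X:509235-523226, − strand), which encodes an RNA-binding protein of neurons and is a standard neuronal marker, was well counted everywhere, from 27.6 to 524 CPM (median 70.6). On normal food, elav was at 87.4, 36.2 and 58.6 CPM in wt, 78.8, 524, 127 and 128 in foxoRi, 70.6, 62.9, 43.05 and 297 in Tsc1 and 50.8, 132, 48.6 and 93.6 in Tsc1 foxoRi clones, and under NR at 48.7, 338, 54.5 and 249 CPM in wt, 141 and 293 in foxoRi, 33.8, 281, 45.9 and 61.5 in Tsc1 and 96.1, 27.6, 46.5 and 52.99 in Tsc1 foxoRi clones. The clones high for gl were also high for elav (rho 0.86 over the 29 libraries), but elav did not go to 0 with it: replicate 1 of Tsc1 under NR, with 1 or 2 counts of gl, ro, lz and sev, held 33.8 CPM of elav. The gene chp (FBgn0267435, 3R:31204180-31210730, − strand), which encodes an adhesion protein of the photoreceptor membrane, was low and nearly even, from 0.693 to 13.27 CPM (median 6.58). Its lowest value was in replicate 4 of wt under NR, in which gl was at 209 and sev at 271 CPM. Per kilobase of exon, the highest level of a single clone was 179 CPM for gl and 165 CPM for ato, 65.7 CPM for lz, 64.5 for sca, 51.4 for sev, 48.9 for elav, 37.2 for ro and 32.7 for sens, but only 2.72 CPM for chp and 1.29 CPM for pros. Another annotated gene overlaps each of sca, ro, sev, pros and elav, and the strand setting of the counting is not given in the sources used here, so reads of such partners may be included in these 5 genes.

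**Figure D1:**
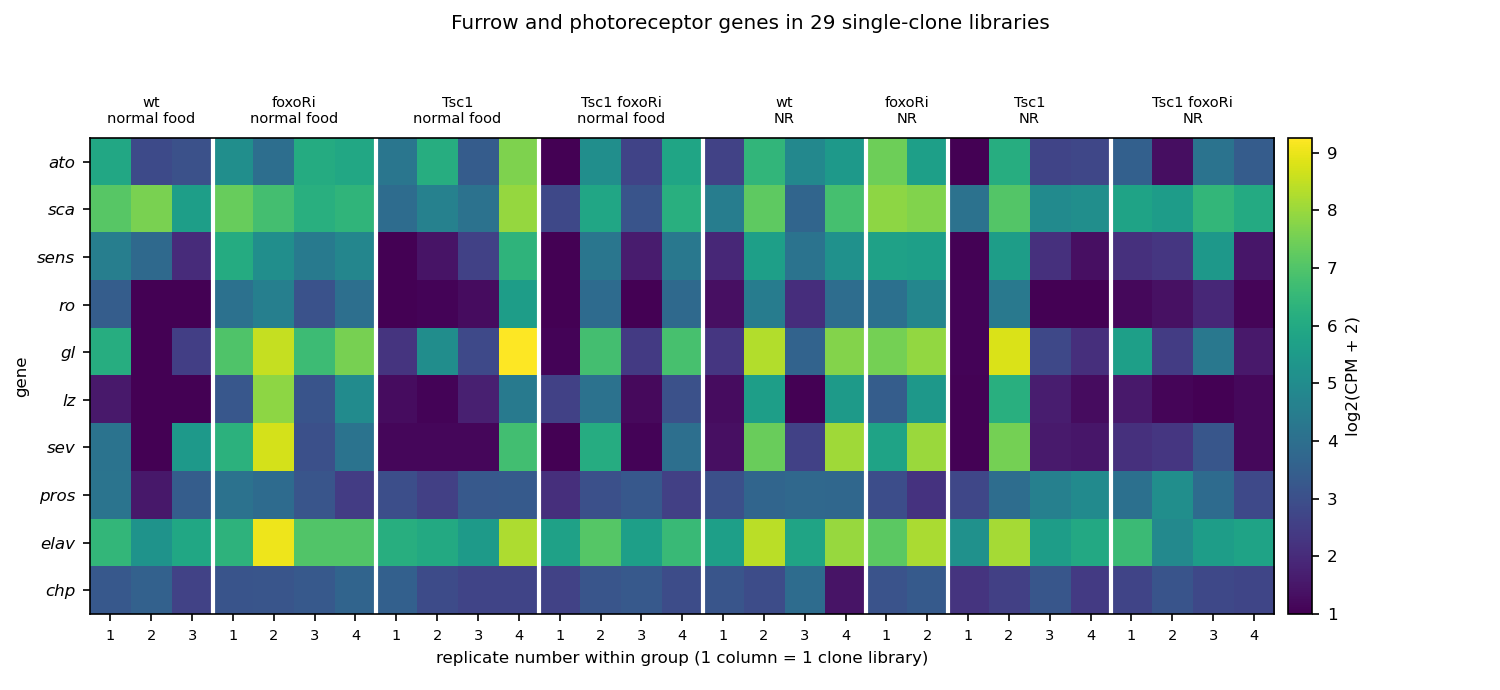
Levels of the 10 genes (rows) in 29 clone libraries (columns, by group and replicate number), as log2(CPM + 2), where 1 is a level of 0. The clones of a group range from dark columns to bright ones for ato, sens, ro, gl, lz and sev, as in Tsc1 NR, where gl was at 437 CPM in replicate 2 and at 0.134, 4.87 and 2.31 CPM in the others, while pros and chp do not follow this pattern.

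Read across libraries, the genes other than pros and chp went together clone by clone. All 10 genes had more than 3 counts in 14 of the 29 libraries, 9 in 7 libraries, and 4 to 8 in the other 8. Replicate 4 of Tsc1 on normal food was the highest of all libraries for ato, sca, sens, ro and gl, and replicate 2 of foxoRi on normal food for lz, sev and elav. At the other end, replicate 1 of Tsc1 under NR had 0 counts of ato, 1 of sens, 2 of ro, 2 of gl, 1 of lz and 1 of sev, and replicate 1 of Tsc1 foxoRi on normal food had 0 counts of ato, sens, ro and sev and 1 of gl, yet 32 of lz. Among the 29 libraries, every genotype except foxoRi, and both foods, held clones at or near 0 for sev, and none of the 6 foxoRi clones was under 6.12 CPM of sev or under 13.7 CPM of ato. The unused replicate 3 of foxoRi under NR had 2 counts of sev and 1 of ato.

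The balance between early and late genes also differed between clones. Replicate 2 of foxoRi on normal food had 420.3 CPM of sev and 228 of lz beside 13.7 of ato, so that sev was at 30.7 times and lz at 16.6 times the CPM of ato. Replicate 1 of foxoRi under NR showed the reverse, with 170.5 CPM of ato, 53.9 of sev and 8.83 of lz, ratios of 0.316 and 0.0518. In replicate 2 of Tsc1 on normal food, ato was at 68.9 and gl at 31.2 CPM while sens, ro, lz and sev had 7, 1, 1 and 2 counts. With 2 counts, sev there was not distinguishable from 0, so its ratio to ato, 0.00300, is a floor value. In wt, replicates 2 and 4 under NR had sev at 1.95 and 6.48 times the CPM of ato, with elav at 338 and 249 CPM. These ratios are of CPM and not per length, so they rank clones and not genes.

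**Figure D2:**
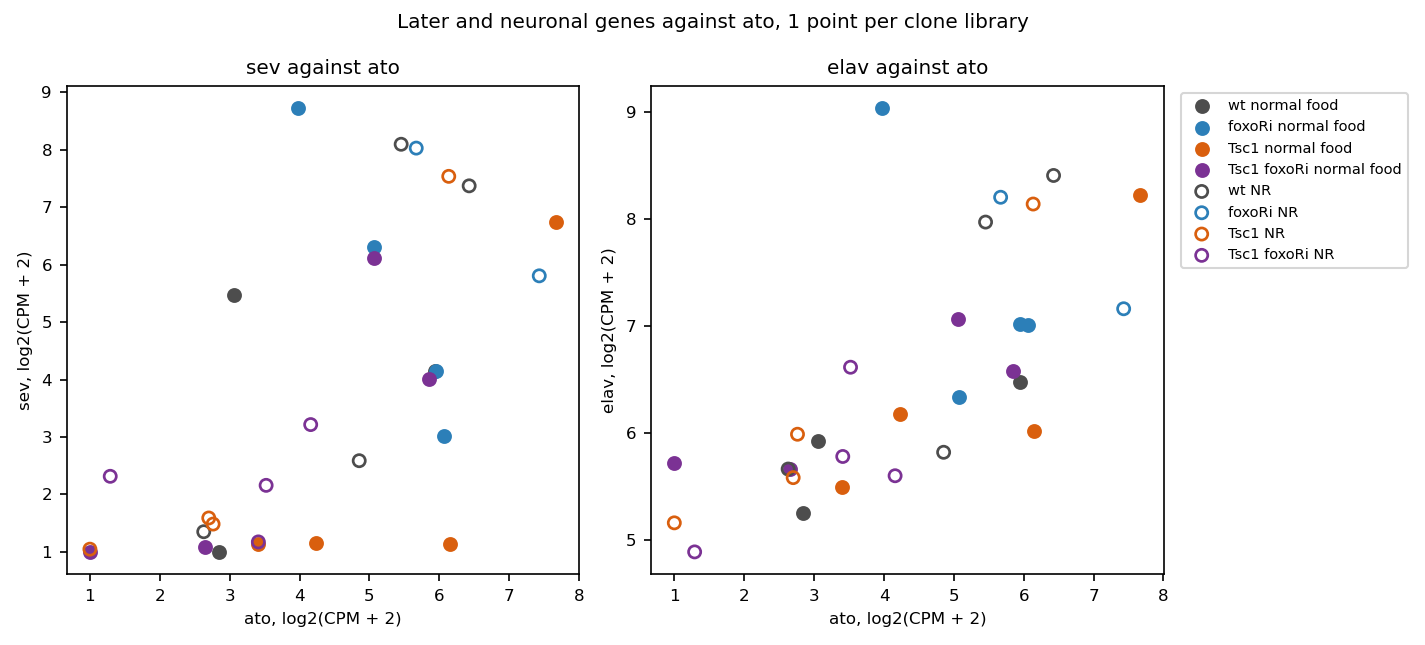
Level of sev (left) and elav (right) against ato in the 29 clone libraries, all as log2(CPM + 2), with filled points for normal food, open points for NR and a color for each genotype. Clones with ato under 3 CPM had little sev, clones with more ato had sev at all levels, and replicate 2 of foxoRi on normal food stands at the top with 420.3 CPM of sev at 13.7 CPM of ato.

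Levels of genes of other regions of the disc were read beside these. Of the 6 progenitor genes of the anterior region, hth ranged from 26.1 to 1052 CPM, with Spearman rho of −0.68 with ato and −0.59 with gl over the 29 libraries, while the rho with ato was −0.39 for toy, −0.16 for eyg, −0.15 for tsh, −0.06 for Optix and 0.07 for ey. Of the 3 retinal determination genes, which act on both sides of the furrow, dac ranged from 15.3 to 906 CPM with a rho of 0.88 with ato, and the rho was 0.75 for eya and 0.42 for so. These points share library and depth, and the values are given as a description. Wild-type replicate 2 on normal food stood apart from this order. It held 191 CPM of sca but 0 counts of gl, ro, lz and sev, and it had the highest levels of oc (419 CPM), mirr (332 CPM) and kek1 (373 CPM) of all libraries, the first of which is a homeobox gene of the ocellar region of the head. Of the glial markers, repo, moody, wrapper, Eaat1 and gcm stayed between 0 and 11.0 CPM in all libraries, while loco and Gli reached 173 and 269.5 CPM in replicate 2 of foxoRi on normal food, which is also the highest for lz, sev and elav. The remaining glial marker, nrv2, ran from 33.9 to 128 CPM, and Gli was at 47.8 CPM or more in every library. Depth did not order the clones in the same way: the rho of the 10 genes with the total count ran from −0.28 to 0.22, and with the number of genes with a count from −0.18 to 0.03, apart from 0.49 for pros. With the ribosomal RNA share it ran from −0.42 (ro) to 0.45 (chp).

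The spread between clones of 1 group was larger for most of these genes than for other genes. The SD within groups on the log2(CPM + 2) scale had a median of 1.58 over the 10 genes and of 0.436 over all 13524 tested genes. It was 2.63 for gl and 2.57 for sev, a size reached by 0.0296% and 0.0370% of the tested genes, 1.77 for lz, 1.73 for ato, 1.72 for sens, 1.45 for ro, 1.33 for sca and 1.07 for elav (2.32% of genes). It was 0.775 for pros (6.65% of genes), which is above the 90th percentile of all tested genes, 0.711, and 0.505 for chp (36.4%), which is nearer to their median. Differences between the 8 groups took 20.9% (chp) to 39.2% (lz) of the variance of a gene, with a median of 33.7% against 27.6% over all tested genes, so most of the variance lay between clones with the same label. This share is not adjusted for the number of groups, so part of it arises even where the labels carry no information.

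The 8 genes other than pros and chp went together over the 29 libraries. Their 28 pairs had a Spearman rho of 0.52 (sca with lz) to 0.91 (ro with gl), with a median of 0.76, whereas the 17 pairs with pros or chp ran from −0.20 to 0.31 with a median of 0.04. Among the early genes, sca and sens had a rho of 0.86 and sens and ro of 0.89. Among the late ones, gl and sev had a rho of 0.89 and lz and elav of 0.82. Pairs of an early with a late gene reached like values, as ro with gl (0.91) and sens with gl (0.86). Other pairs within the early or late genes were lower, as ato with sca (0.66) and lz with sev (0.70). The lowest values outside pros and chp joined lz to sca and to ato (0.54). Libraries share their depth and composition across genes, so no p is given.

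The non-members whose levels were most like each gene over the 29 libraries, by Spearman rho among all tested genes, included other genes of the same region. For ato these were Dyrk2 (0.95), CG14478 (0.94) and beat-IIIc (0.92), and for sca Krn (0.86), which encodes an EGF receptor ligand, E(spl)m4-BFM (0.85), a gene of Notch signaling, and rho (0.84), whose protease releases such ligands. For sens they were peb (0.91), GstZ2 (0.91) and E(spl)mdelta-HLH (0.90), and for ro twit (0.94), peb (0.93) and E(spl)mgamma-HLH (0.92). The transcription factor gene peb, also known as hindsight, was again among the first 3 for sev (0.93), after rau (0.95) and CG43901 (0.94), and gl had twit (0.95), rau (0.94) and CG6026 (0.91). For lz they were Ugt36A1 (0.84), drongo (0.83) and Ipp (0.83), and for elav chn (0.90), nrm (0.89) and dap (0.88), the last an inhibitor of Cyclin E that acts when cells leave the cycle. The likeness was weaker for pros, with CG13117 (0.76), lncRNA:CR44312 (0.75) and CG13023 (0.74), and for chp, with Cap-H2 (0.72), Hydr1 (0.69) and Mgat1 (0.63).

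Whether the groups differed was tested with edgeR's quasi-likelihood F test in 1 fit of the 8 groups, with Benjamini-Hochberg adjustment over the 13524 tested genes. Calls required an adjusted p below 0.2 and, where there is a fold change (FC), a log2 FC beyond 0.8 in either direction. Replicates were single clones, and the labels do not say which came from the same larva, so p-values measure the spread between clones. In the test for any difference among the groups, lz alone of the 10 genes was called (adjusted p = 0.114), against 9.81% of all tested genes. Its group means ran from 0.310 ± 0.537 CPM (SD, n = 3) in wt on normal food and 0.348 ± 0.438 (n = 4) in Tsc1 foxoRi under NR to 67.9 ± 107 CPM (n = 4) in foxoRi on normal food, the last through 1 clone at 228 CPM. Without that clone, edgeR called 0 of the 10 genes and 8.53% of all genes. Without replicate 2 of Tsc1 under NR, 3 were called (lz, sev and elav, against 10.3% of all genes), without replicate 2 of wt on normal food 2 (lz and pros, 8.50%) and without replicate 4 of Tsc1 on normal food 2 (sca and lz, 10.1%). DESeq2 called lz and pros, against 13.7% of all genes. The next smallest adjusted p-values were 0.286 for pros and 0.342 for elav, and the other 7 were 0.543 or more.

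**Figure D3:**
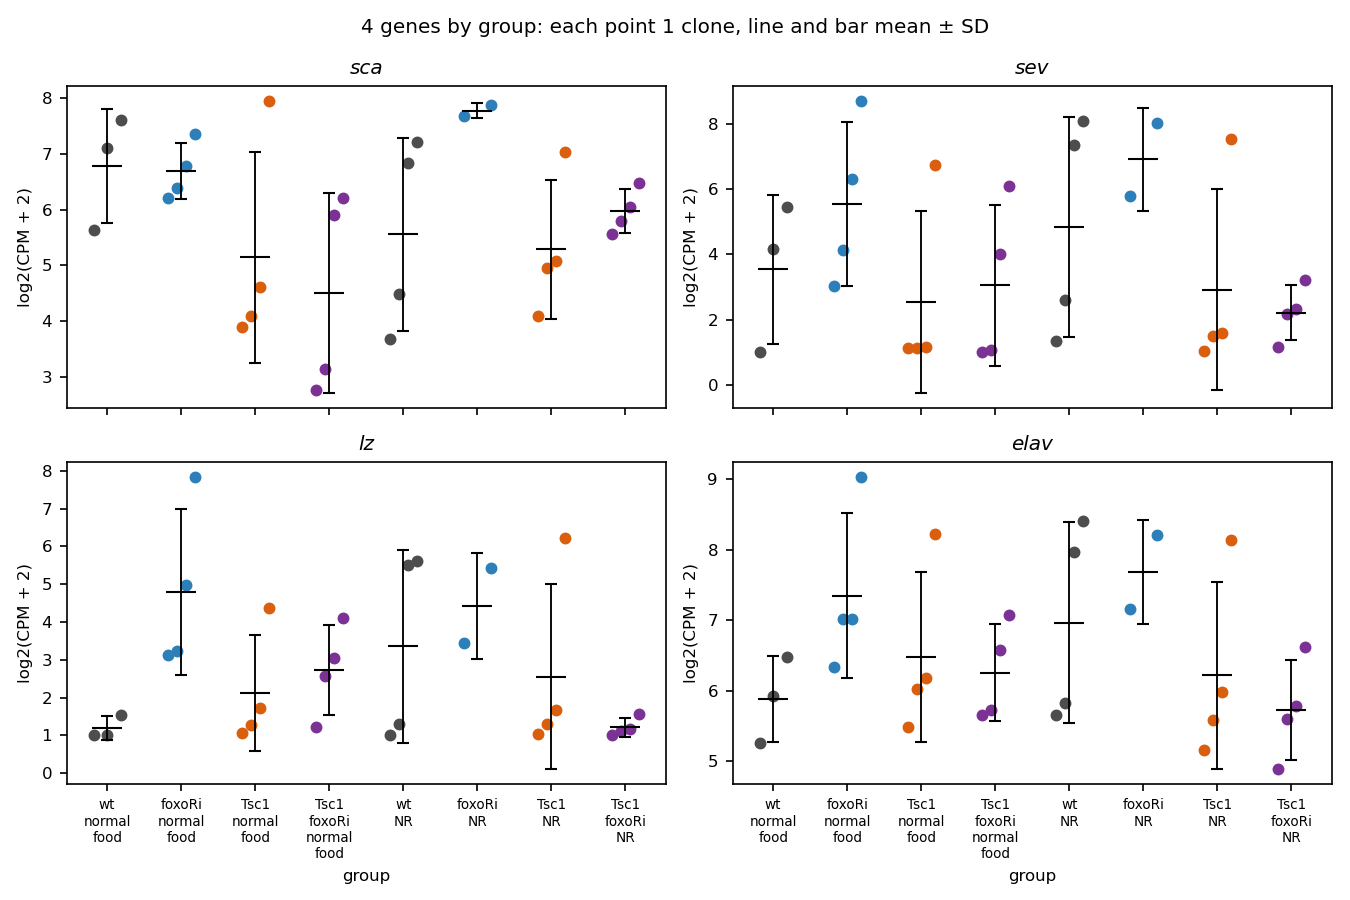
Levels of sca, sev, lz and elav by group as log2(CPM + 2): each point is 1 clone, and the line and bar give the mean ± SD of the group's 2 to 4 clones. In most groups 1 or 2 clones lie far above the rest, as for sev in Tsc1 on normal food with 0.218, 0.207, 0.2 and 105 CPM, and the 4 clones of Tsc1 foxoRi under NR lie close together for lz.

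The Tsc1 mutation was compared with its absence over both foods and both knockdown labels, 16 clones against 13. The gene sca was lower in Tsc1 mutant clones, with a range of 4.85 to 245 CPM (median 38.6) against 10.9 to 231 CPM (median 112), a log2 FC of −1.15 ± 0.46 (SE, edgeR adjusted p = 0.144), and it was the only one of the 10 genes called, against 7.51% of all tested genes and 1.86% called lower. The ranges overlap almost fully, since replicate 4 of Tsc1 on normal food was the highest library of all for sca. Within the 4 pairs of groups, the log2 FC of sca was −0.75 on normal food and −0.50 under NR without foxoRi, and −1.58 and −1.79 in clones labelled foxoRi. The value of −0.50 became 0.10 without replicate 2 of wt under NR.

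For sev the difference was larger and did not pass. It ran from 0 to 184 CPM (median 0.904) in the 16 Tsc1 mutant clones and from 0 to 420.3 CPM (median 42.4) in the 13 others, with log2 FC −2.27 ± 1.01 (edgeR adjusted p = 0.206), and 4 of 16 against 9 of 13 clones were at 10 CPM or more. The neuronal gene elav had a median of 57.2 CPM against 127 CPM and a log2 FC of −0.78 ± 0.37 (edgeR adjusted p = 0.244). These 3 genes had an unadjusted p under 0.05, against 19.2% of all tested genes. The log2 FC of ato was −0.99, of sens −1.06, of ro −1.26, of gl −0.73, of lz −1.51 and of chp −0.45, and only pros had a positive one, of 0.34, so that 9 of 10 were negative with a median of −1.02 against 0.15 over all tested genes. Without replicate 1 of wt on normal food 7 of 10 were negative, with gl at 0.13 and ro at 0.69. The 4 pairs of groups were not alike. For Tsc1 against wt on normal food, 7 of 10 values were positive, with a median of 0.91, and 2 of 10 without replicate 4 of Tsc1. In each of the other pairs, 0 or 1 of 10 was positive. As these genes rise and fall together clone by clone, the 9 signs are not independent of each other.

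The call rested on single clones. Without replicate 2 of Tsc1 under NR, 8 genes were called, all lower in Tsc1 mutant clones, namely ato, sca, sens, ro, gl, lz, sev and elav, against 8.16% of all genes. Without replicate 4 of Tsc1 on normal food 6 genes were called, against 8.47%. There were 3 (sca, sev and elav) without replicate 1 of wt under NR, replicate 3 of wt under NR or replicate 1 of foxoRi on normal food, against 9.83%, 7.43% and 11.1% of all genes. There were 2, sca with elav, without replicate 1 of Tsc1 foxoRi under NR, and 2, sca with sev, without any one of replicate 3 of Tsc1 foxoRi under NR, replicate 1 of wt, replicate 3 or 4 of foxoRi or replicate 2 of Tsc1 foxoRi on normal food, against 7.03% to 11.4% of all genes in these 6 fits. None of the 10 genes was called by edgeR without replicate 2 of wt under NR (6.91% of all genes called) or without either foxoRi clone under NR (3.64% and 2.73%). Without replicate 2 of wt on normal food only sev was (7.26%). With all 31 libraries, elav was called in place of sca, whose log2 FC was then −0.95 (adjusted p = 0.377), against 6.99% of all genes. DESeq2 called sca and sev, against 7.06%.

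**Figure D4:**
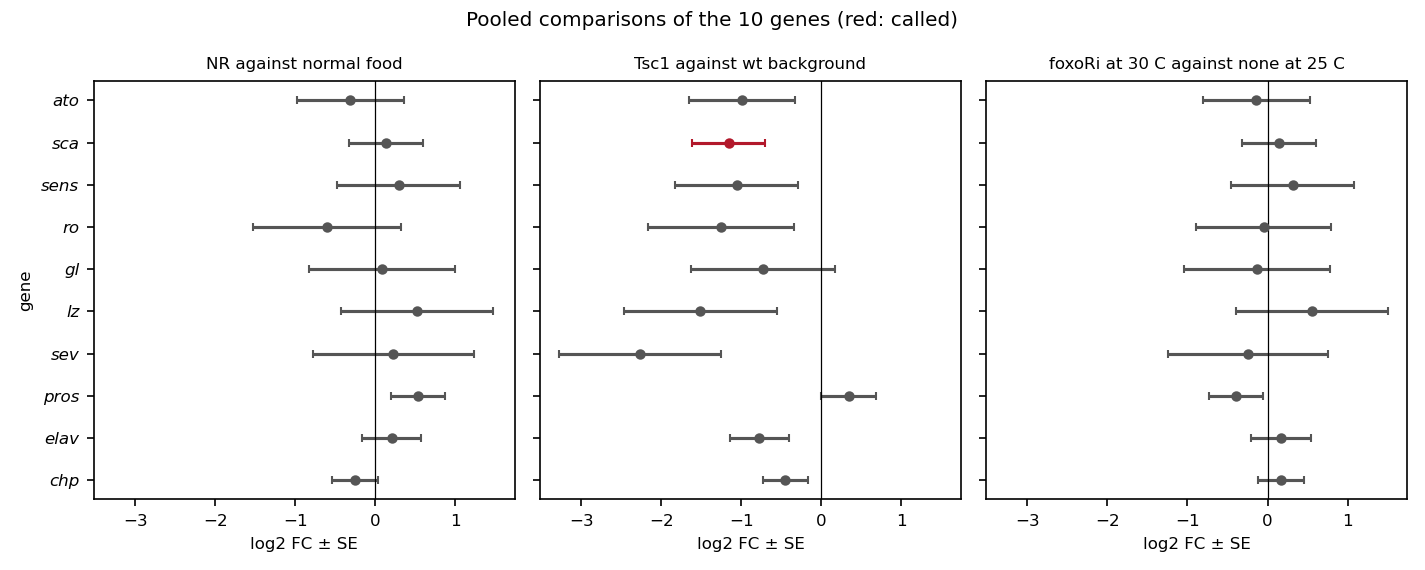
log2 FC with its SE of the 10 genes in the 3 pooled comparisons, from 1 edgeR fit of 29 libraries, with genes past both thresholds in red. In the comparison of Tsc1 mutant with other clones 9 of 10 genes lie left of 0 and sca (−1.15 ± 0.46) is red, while in the other comparisons the points lie on both sides of 0.

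Under NR against normal food over all genotypes, 14 clones against 15, none of the 10 genes was called by edgeR or by DESeq2, against 0.104% and 0.606% of all tested genes, and 0 had an unadjusted p under 0.05. The smallest p was that of pros, which had a median of 11.7 CPM under NR and 7.03 CPM on normal food (log2 FC 0.54 ± 0.34, edgeR adjusted p = 0.862), with overlapping ranges of 2.58 to 32.0 and 0.917 to 16.1 CPM. The log2 FC of each of the others was smaller than its SE, and with 1 library left out at a time or under the other alternatives, from 1 to 9 of the 10 were positive. Clones labelled foxoRi at 30 C, compared with those without at 25 C (14 against 15), likewise had none of the 10 genes called by edgeR or DESeq2, against 0.902% and 1.72% of all tested genes, and 0 at an unadjusted p under 0.05. The smallest p was again that of pros (log2 FC −0.40 ± 0.34, edgeR adjusted p = 0.785), and from 4 to 9 of the 10 values were positive under the same alternatives. The SE of the log2 FC was 0.67 or more for ato, sens, ro, gl, lz and sev in these 2 comparisons, so that only large changes of these 6 genes were detectable.

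In the 12 comparisons of 2 groups that differ in 1 factor, edgeR called none of the 10 genes in any, and DESeq2 called 6, which are named below with its share of all genes. Of the 120 edgeR values, 14 had an unadjusted p under 0.05, and 6 of these were for Tsc1 foxoRi against foxoRi under NR. Over all tested genes, the share with an unadjusted p under 0.05 ran from 3.68% to 13% in the 12 comparisons. For NR against normal food, the share of all tested genes called was 0% in wt, 0% in foxoRi, 0.0444% in Tsc1 and 1.55% in Tsc1 foxoRi clones. The smallest p in wt was that of lz, whose NR clones were at 0.441, 47.3, 0 and 43.1 CPM against 0.929, 0 and 0 on normal food (log2 FC 5.97 ± 2.30, edgeR adjusted p = 0.868), so that only 2 of the 4 NR clones were higher. Against a group with 0 counts in 2 of 3 clones, the fitted value depends on the prior count and is no measure of size, here and in the other comparisons of lz with these wt clones. In foxoRi, Tsc1 and Tsc1 foxoRi clones it was that of pros, with log2 FC −1.21 ± 0.81, 1.42 ± 0.63 and 1.69 ± 0.64 (edgeR adjusted p = 0.776, 0.548 and 0.359). In Tsc1 foxoRi clones, pros was at 14.7, 32.01, 12.9 and 5.04 CPM under NR and 2.36, 6.12, 7.57 and 3.89 on normal food, with 3 NR clones above all of the others, and DESeq2 called it, against 3.22% of all genes.

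For Tsc1 mutant clones against those without the mutation, the share of genes called was 1.21% on normal food, 0.665% under NR, and with the foxoRi label 0.791% on normal food and 1.18% under NR. Without foxoRi, the smallest p on normal food was that of lz (log2 FC 3.84 ± 2.18, edgeR adjusted p = 0.524, and 0.80 without replicate 4 of Tsc1), and under NR that of pros (0.78 ± 0.62, adjusted p = 0.831). With foxoRi on normal food, all 10 genes had a negative log2 FC, the smallest p being that of lz (−3.39 ± 1.65, adjusted p = 0.449, and −1.18 without replicate 2 of foxoRi). With foxoRi under NR, 6 of the 10 genes had an unadjusted p under 0.05, against 13% of all tested genes, namely lz (−6.21 ± 2.14, adjusted p = 0.275), ato (−3.68 ± 1.49, 0.359), elav (−1.96 ± 0.82, 0.365), sev (−5.60 ± 2.38, 0.372), pros (1.95 ± 0.84, 0.372) and ro (−4.81 ± 2.13, 0.375). Here only 2 foxoRi clones stood against 4, and the unused 3rd foxoRi clone had at most 2 counts of ato, sca, sens, ro, gl, lz and sev. Without replicate 2 of Tsc1 under NR, which is in neither group but shares the fit, lz was called (−6.30, adjusted p = 0.139), against 2.23% of all genes. DESeq2 called lz, sev and pros, against 9.24% of all genes. A fit of only these 2 groups called ato, sca, ro, lz, sev and elav, against 2.07% of the 10206 genes it tested. With all 31 libraries lz and elav were called, against 15.1%.

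For clones labelled foxoRi against those without the label, the share of genes called was 0.0813% in wt and 0.0592% in Tsc1 clones on normal food, and 0% and 0.873% under NR. In wt on normal food, lz had the smallest p, with 7.42, 228, 6.77 and 29.6 CPM in foxoRi against 0.929, 0 and 0 in wt clones (log2 FC 7.56 ± 2.42, edgeR adjusted p = 0.420), and DESeq2 called it (adjusted p = 0.0243), against 1.55% of all genes. In Tsc1 clones under NR it was again lz, at 0.986, 0.149, 0 and 0.256 CPM with and 0.067, 71.99, 1.19 and 0.443 without the label (−5.79 ± 2.01, adjusted p = 0.450), where 3 of the 4 Tsc1 clones were at 1.19 CPM or less and replicate 2 alone was high. DESeq2 called it (adjusted p = 0.1095), against 1.61% of all genes. Without replicate 2 the edgeR log2 FC was −0.72. In the other 2 comparisons, the smallest p was that of ato in Tsc1 clones on normal food (−1.69 ± 1.26, adjusted p = 0.80) and that of sca in wt clones under NR (1.58 ± 1.00, adjusted p = 0.895).

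Counting groups whose values did not overlap, 8 of the 10 genes were lower in every Tsc1 foxoRi clone than in both foxoRi clones under NR, namely ato, sca, sens, ro, gl, lz, sev and elav, against 8.39% of all tested genes that were lower in this way. On normal food, sca and sens were lower in every Tsc1 foxoRi clone than in every foxoRi clone (1.94% of genes), and gl and lz were higher in every foxoRi than in every wt clone (2.79%). Under NR, sca and sens were higher and pros lower in both foxoRi clones than in the 4 wt clones (12.0% of genes in either direction), and sca was higher in both foxoRi clones under NR than in the 4 on normal food (5.67% of genes higher). The other 7 pairs of groups overlapped for all 10 genes. The comparisons with the foxoRi clones share these libraries, so they are not separate observations, and the 8 genes rise and fall together clone by clone. The unused replicate 3 of foxoRi under NR had at most 2 counts of ato, sca, sens, ro, gl, lz and sev. Including it would undo the separation of these genes from Tsc1 foxoRi under NR. It would also undo that of sca and sens from wt under NR, and of sca between foods. For pros, the unused clone had 51 counts in a total of 5701032, against 56 in 8965103 in replicate 1 of wt under NR. On CPM without TMM scaling, the separation of pros from wt under NR would thus be undone too.

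Other genes of the same pathways were read for context in the comparison of Tsc1 mutant with other clones, where the shares of all genes given above apply. Of 21 further genes of photoreceptor recruitment, edgeR called 9 lower and 1 higher, with a median log2 FC of −1.03, and DESeq2 called 9. The 9 were pnt (−1.41 ± 0.43), the effector of EGF receptor signaling, its opposing factor aop (−1.03 ± 0.35), the ligand spi (−0.83 ± 0.19), the feedback inhibitors sty (−0.94 ± 0.30) and kek1 (−1.58 ± 0.49), ttk (−0.86 ± 0.11), a repressor of the neural fate, phyl (−1.93 ± 0.73), which targets it for degradation, and the R1 and R6 homeobox genes B-H1 (−1.47 ± 0.65) and B-H2 (−1.50 ± 0.57), with edgeR adjusted p-values of 1.52e-05 (ttk) to 0.197 (B-H1). Of these 9, kek1 (373 CPM) and B-H1 (65.9 CPM) were highest in replicate 2 of wt on normal food, the rest in other libraries. That clone had 0 counts of gl, ro, lz and sev, and calls of these lists were not repeated with a library left out. The gene called higher, Pph13 (2.57 ± 1.11, adjusted p = 0.193), was at no more than 3.27 CPM and at 0 in 16 libraries. Of 12 further genes of the furrow and R8 selection, edgeR called 0 and DESeq2 0, with 2 at an unadjusted p under 0.05. Among these was Egfr, whose log2 FC of −0.62 ± 0.13 (adjusted p = 0.00374) was under the fold threshold. Of 13 other neuronal genes, 1 was called, the adhesion gene Fas2 (−0.92 ± 0.38, adjusted p = 0.161), with 5 at an unadjusted p under 0.05. DESeq2 called 4. Of 6 anterior progenitor genes and 3 retinal determination genes edgeR and DESeq2 called 0, and 0 had an unadjusted p under 0.05.

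Markers of other cells were compared in the same way. Of 8 glial genes, loco (−0.94 ± 0.27) and Gli (−0.95 ± 0.20) were called lower in Tsc1 mutant clones, and of 4 antennal genes ss (−1.97 ± 0.67) and al (−2.67 ± 0.96), the latter at no more than 3.36 CPM in any library. All 5 muscle genes were called higher (log2 FC 1.38 to 2.13), at summed levels of 4 to 102 CPM per library, as was the larval serum protein gene Lsp1beta (2.52 ± 0.98, adjusted p = 0.135) of 5 fat body genes. Of 7 hemocyte genes edgeR called 0 and DESeq2 0, with 0 at an unadjusted p under 0.05. The fat body genes were highest in replicate 3 of Tsc1 foxoRi under NR, with 1437 CPM of Lsp1beta, the clone that also held 40.1 CPM of sens. Under NR against normal food, Lsp1alpha (4.86 ± 1.04) and Lsp1beta (4.16 ± 0.89, both adjusted p = 0.0862) were called higher. All 5 fat body genes had an unadjusted p under 0.05, and DESeq2 called 5. For the same comparison, edgeR called 0 genes of the other 9 lists, with 5 at an unadjusted p under 0.05 and 1 antennal gene called by DESeq2. With the foxoRi label, edgeR and DESeq2 called 0 genes of these lists, with 6 at an unadjusted p under 0.05. DESeq2 called 3 glial, 1 antennal, 5 muscle and 3 fat body genes for Tsc1 mutant against other clones. The part of such RNA in the levels of the 10 genes was not tested.

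In the 2 libraries not used, both with fewer genes counted than any of the 29, the 10 genes are given as plain counts. Replicate 4 of wt on normal food had 0 or 1 counts of ato, sens, ro, gl, lz and sev, 50 of sca and 38 of elav. Replicate 3 of foxoRi under NR had 0 to 2 counts of ato, sca, sens, ro, gl, lz and sev but 3974 of elav, which is 697 CPM without TMM scaling and above the highest of the 29 libraries on that scale, 551 CPM. This clone thus had almost no RNA of 7 of the 10 genes, which both used foxoRi clones under NR held, and its elav was above theirs.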

How the data were processed

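RNA of 31 laser-cut clones of the eye disc was sequenced with a kit for low input. According to the study's methods, reads were mapped to BDGP6 with STAR and counted with featureCounts (the processing notes also name Trimmomatic), and the authors deposited 1 table of estimated counts per gene, without normalization, of which 17.1% were not whole. Versions, strand and multi-mapping settings are not given in the sources used here. Of 17559 gene IDs, 17253 matched BDGP6.54 (Ensembl release 115), from which symbols and coordinates were taken.

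Groups and replicate numbers came from the labels. The study used 29 libraries. They are taken here as all but wt normal food replicate 4 and foxoRi NR replicate 3, the 2 with the fewest genes counted. After rounding, 1 quasi-likelihood model of the 8 groups was fitted with edgeR 4.0.16 under R 4.3.3, with TMM factors, filterByExpr by group and Benjamini-Hochberg adjustment over 13524 genes. Thresholds were those in the study's main text, 0.2 for the adjusted p and 0.8 for log2 FC in either direction, and an unadjusted p threshold that 1 of its legends adds was not applied. SEs were obtained from log2 FC and F, as the size of the former over the root of the latter. The test was tried on data drawn from the real means with known changes. Alternatives were all 31 libraries, DESeq2 1.42.0 and its size factors, no filter, a replicate block, only the 2 groups compared, and each library left out in turn. Levels, Spearman rho and figures were computed in Python 3.11.15 (numpy 2.4.6, pandas 2.3.3, scipy 1.17.1, matplotlib 3.10.9).

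With test values, the text names every member called in a comparison or, where none was, the one of smallest p, and likewise for the other lists in the pooled comparisons. The values of further members are given for context and were chosen after they were seen. The members and lists were chosen with earlier results of these data known. The listed genes h, da, Dl and para were not analysed here.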

Additional observations from a re-analysis of the deposited data

Results flagged for a closer look

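Within the groups of 4 clones, 1 clone lay far from the other 3, by Dixon's criterion at the 95% level, in 19 of 60 cases of a gene and a group, taken on CPM. The criterion passes about 1 in 20 groups of normally distributed values by chance, and levels on the CPM scale are skewed. On the log2(CPM + 2) scale, chosen after the data were seen, 6 of the 60 cases passed, all among the 19, namely ro and sev in both Tsc1 groups, lz in Tsc1 under NR and pros in wt under NR. Of the 19 cases on CPM, 8 were replicate 2 of Tsc1 under NR, which was above its group with 68.3 CPM of ato, 129 of sca, 46.6 of sens, 18.4 of ro, 437 of gl, 72.0 of lz, 184 of sev and 281 of elav. A further 7 were replicate 4 of Tsc1 on normal food, with 245 CPM of sca, 80.1 of sens, 46.2 of ro, 609 of gl, 18.8 of lz, 105.0 of sev and 297 of elav. As the 8 genes other than pros and chp went together over the libraries, the cases within a clone are not independent. Replicate 2 of foxoRi on normal food stood above its group with 228 CPM of lz and 524 of elav, and replicate 3 of Tsc1 foxoRi under NR with 40.1 CPM of sens. For pros, replicate 1 of wt under NR was below its group, at 6.17 CPM. Outside the libraries compared, the unused replicate 3 of foxoRi under NR had 697 CPM of elav, above all used libraries, with almost no RNA of the furrow genes.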

How the results depend on the processing

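The number of the 10 genes called for Tsc1 mutant against other clones was 1 (sca) and became 2 (sca and sev) with DESeq2's size factors, with no filter, with DESeq2's test and with the replicate block. Leaving out 1 library at a time, it ranged from 0 to 8. The number differing among the 8 groups was 1 (lz) and became 2 with all 31 libraries (lz and elav) and with DESeq2's test (lz and pros), and ranged from 0 to 3 with a library left out. The sum over the 12 comparisons of 2 groups was 0 and became 2 with all 31 libraries, 6 with DESeq2's test and 6 with only the 2 groups compared, the last 6 all for Tsc1 foxoRi against foxoRi under NR, and ranged from 0 to 1 with a library left out. The counts for food and for the foxoRi label stayed at 0 under every alternative run. Of the single log2 FC values recomputed, which include all 10 genes for Tsc1 mutant against other clones, 3 changed sign. With a library left out, gl ranged there from −2.15 to 0.13 and ro from −2.82 to 0.69, positive only without wt normal food replicate 1, and sca for Tsc1 against wt under NR from −1.58 to 0.10, positive only without wt NR replicate 2. Values of single genes passed the threshold in 45 cases and lost it in 5, the losses all for sca between Tsc1 mutant and other clones. Replicate numbers did not pair the clones: the deviations of same-numbered libraries had a median r of 0.03 over 92 pairs, against −0.01 over 274 other pairs. With the number as a block, 972 genes in place of 1327 differed among the groups and 1179 in place of 1016 for Tsc1, and the other calls of the 10 genes did not change. Over all tested genes, adding the 2 unused libraries raised the number called under NR from 159 to 1813 for Tsc1 foxoRi against foxoRi and from 0 to 442 for foxoRi against wt, and from 0 to 450 for NR against normal food in foxoRi clones. It lowered the number from 210 to 20 for NR against normal food in Tsc1 foxoRi clones, from 164 to 15 for Tsc1 against wt on normal food and from 122 to 69 for the foxoRi label. With the block, the number for NR went from 14 to 33. With no TMM factor, 9 of the 290 levels moved by more than 1 SD of their group, and with DESeq2's size factors 0 did. Levels of 3 counts or fewer could not be told from 0, for 2 to 11 clones in ro, lz, sev, sens, gl and ato. Groups of 2 to 4 single clones that spread this widely limit each comparison.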
